A study of Mus musculus with 6 samples.

Results

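Fibro-adipogenic progenitors (FAPs) and fibroblasts are the connective tissue cells between the fibers of skeletal muscle, and 9 genes that mark them were followed here in denervated gastrocnemius muscle. The genes were Mfap4, Mfap5, Dcn and Lum, whose products are secreted into the matrix, Pdgfra, Cd34, Ly6a and Dpp4, whose products stand on the cell surface, and Pi16. A gene was measured where the platform annotation gave it as the only gene of a probe set. This held for 8 of the 9 genes and for 10 of the 45037 probe sets tested, with 2 probe sets each for Mfap5 and Dpp4. Ly6a, the surface antigen Sca-1, was not analysed here.

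All arrays came from male ICR mice, an outbred stock, that were 7 weeks old on arrival and had the sciatic nerve of both legs cut, with a piece of 5 mm removed. The MA group received AIN-93G diet with 0.27% maslinic acid (MA), a triterpene of olive peel, from 1 week before surgery to the end, and the control group received that diet without MA. RNA of whole gastrocnemius from day 14 after surgery was hybridized to 6 mouse arrays, 3 from each group, and muscle with an intact nerve was not analysed here. The sources do not state that each array was a separate mouse, and the spread behind the p-values may be technical. The question was whether these genes differed between the diets.

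FAPs lie outside the basement membrane of the fibers and are usually recognised by the PDGF receptor alpha and Sca-1. They can become fibroblasts or adipocytes, make much of the interstitial matrix and support satellite cells, and they are known to persist and to secrete interleukin 6 in denervated muscle. Dpp4 and Pi16 mark a fibroblast state found around vessels and in fascia, while Dcn and Lum are made by most fibroblasts, tendon cells included. Since RNA of the whole muscle was measured, a change in the number of such cells and a change in RNA per cell cannot be told apart.

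The values below are log2 values made by RMA, in which 1 unit is a 2-fold change, and they compare a probe set between groups and not with another probe set. The words rose and fell are kept for an adjusted p under 0.05 from limma. Array background was taken as 3.95, the highest value of 22 control probe sets for nonspecific binding. The MA arrays were brighter at all 18 hybridization controls, bacterial and phage transcripts spiked into each sample, with a median difference of 0.17 and a largest one of 0.35. Fiber genes were bright on all arrays, Acta1, the skeletal muscle actin, having a mean of 12.62 with MA and 12.49 without.

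Of the 10 member probe sets, 6 were higher in the MA group and 0 were lower, while 21.6% of all probe sets tested were higher and 21.4% were lower. At an unadjusted p under 0.05, limma gave 7 higher and 0 lower, the added one being the dimmer probe set of Dpp4, under the background on all arrays. The share of all probe sets at that threshold was not computed, so the 7 cannot be set against it. The one-way test of the methods gave 1 lower after adjustment, which was Dcn. The 6 belonged to Mfap5, Lum, Mfap4, Cd34 and Pi16. Only Mfap5, with both its probe sets, and Lum passed the study's thresholds (p under 0.05 before adjustment, fold over 1.2), which 4.56% of all probe sets passed upwards. All arrays of one group lay above all of the other at 7 of the 10, and at 53.9% of all probe sets.

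**Figure D1:**
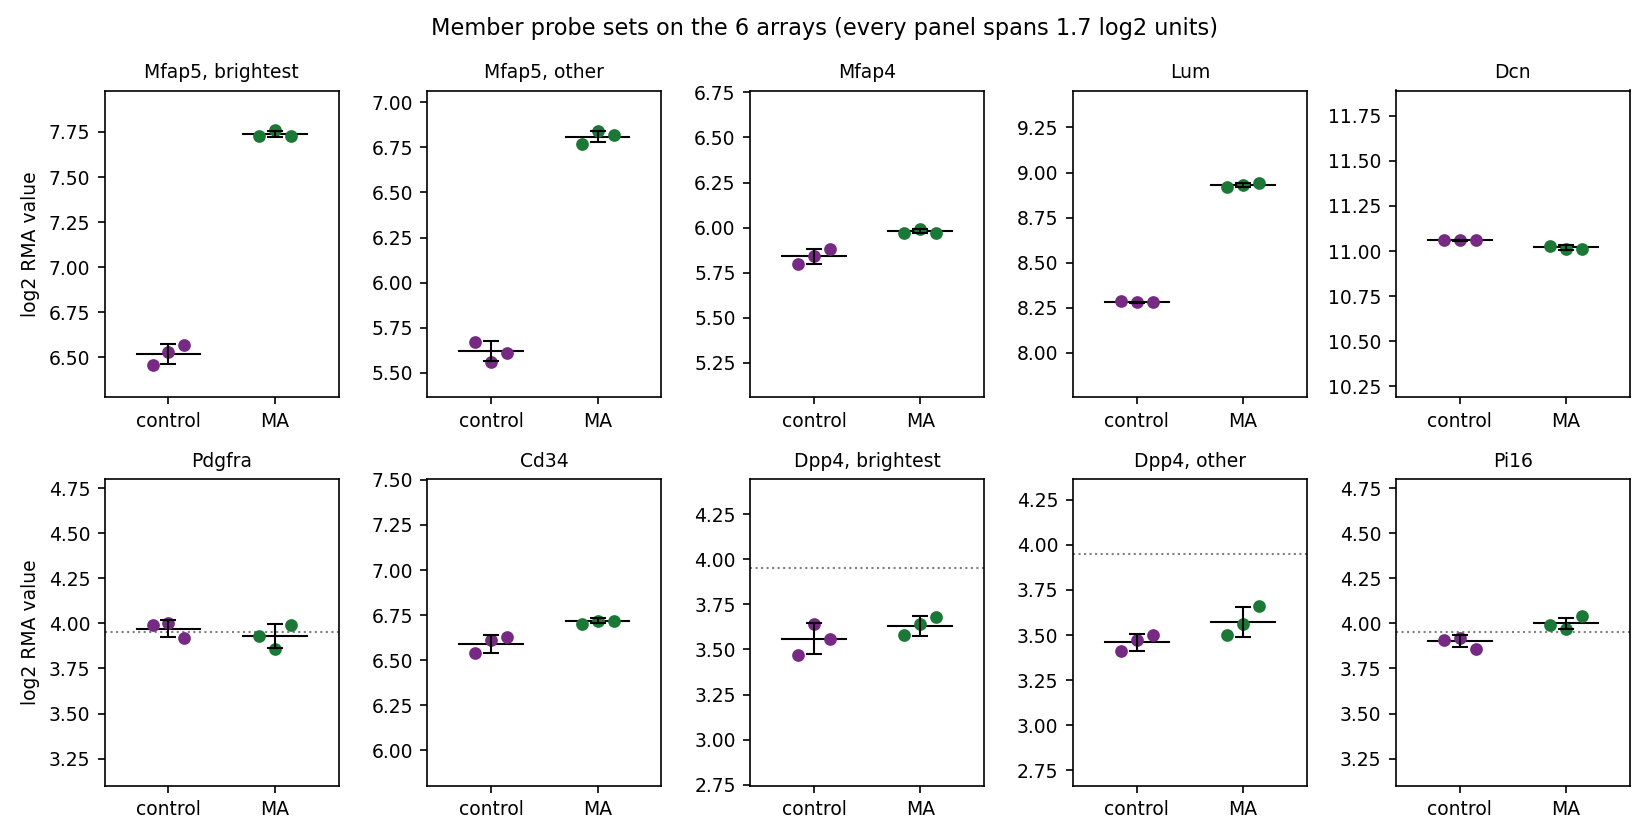
Log2 RMA value of the 10 member probe sets on each of the 6 arrays, with 1 point per array, the group mean as a long bar, the SD (n = 3) as an error bar and the background of 3.95 as a dotted line where it lies within the panel. Every panel spans the same log2 range, so that the wide gaps of Mfap5 and Lum can be set against the narrow ones of Mfap4, Cd34 and Pi16, and both probe sets of Dpp4 lie under the background.

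Mfap5, also called MAGP-2, is a small glycoprotein of the fibrillin microfibrils that carry elastic fibers, and it was the member that differed most. Its brightest probe set (1418454_PM_at) had 7.73, 7.76 and 7.73 on the MA arrays and 6.46, 6.53 and 6.57 on the control arrays. The groups were thus 1.15 apart at their nearest arrays, against SDs of 0.017 and 0.056. Mfap5 was 2.32-fold higher in the MA group (log2 difference 1.22, 95% confidence interval 1.14 to 1.29, limma adjusted p = 3.21e-08). Its other probe set (1449082_PM_at) gave 6.77, 6.84 and 6.82 against 5.67, 5.56 and 5.61, a 2.29-fold difference (adjusted p = 4.88e-08). Of all 45037 probe sets, 60 had a larger rise than the first and 62 a larger rise than the second.

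Mfap4, another glycoprotein of elastic fibers but of a different protein family, moved much less. It had 5.97, 5.99 and 5.97 on the MA arrays and 5.80, 5.84 and 5.88 on the control arrays. All MA arrays were above all control arrays, by 0.09 at the nearest. The rise was 1.10-fold (log2 difference 0.14, 95% confidence interval 0.08 to 0.20, limma adjusted p = 0.00356), which is under the 1.2-fold of the study and under the median of the hybridization controls. Taken on each array, the change of Mfap5 exceeded that of Mfap4 by 1.08 ± 0.01 (SE, n = 3, p = 0.1 in an exact two-sided permutation test, which cannot give less with 3 arrays against 3).

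Lum, lumican, is a small leucine-rich proteoglycan that binds collagen fibrils and sets their spacing. Its values were 8.92, 8.93 and 8.94 in the MA group and 8.29, 8.28 and 8.28 in the control group. No array strayed from its group by more than a small part of the gap of 0.63 between the groups. Lum was 1.56-fold higher in the MA group (log2 difference 0.64, standard error 0.021, adjusted p = 1.15e-07 with limma), and 0.753% of all probe sets had a larger rise.

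Dcn, decorin, the best known proteoglycan of this family and a binder of collagen and of TGF-β, did not rise with it. The 3 MA arrays gave 11.03, 11.01 and 11.01 and all 3 control arrays gave 11.06. The MA arrays were lower without overlap, by 0.02 at the nearest, but the difference of -0.04 did not pass (95% confidence interval -0.09 to 0.00, limma adjusted p = 0.128). With an eBayes trend the same difference passed (adjusted p = 2.54e-04), as it did with the one-way test of the methods (adjusted p = 0.0239). On these arrays the interval lies under the rise of Lum, though the spread behind it may be technical. The change of Lum exceeded that of Dcn by 0.69 ± 0.014 (SE, n = 3, exact permutation p = 0.1, as small as can be).

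Lum and Dcn lie beside each other in the genome, with a predicted gene, Gm46240, on the far side of Dcn and with Kera and Epyc next on the side of Lum (RefSeq gene order, GRCm38.p6). All 4 genes encode small leucine-rich proteoglycans. Kera, keratocan of cornea and tendon, rose by 1.43 (adjusted p = 4.51e-09), and Epyc, epiphycan of cartilage, rose by 0.19 at 3.22 to 3.41, under the background. Beyond Gm46240, Btg1, a regulator of cell growth, fell by 0.47, and at the other end Atp2b1, a calcium pump, fell by 0.41.

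**Figure D2:**
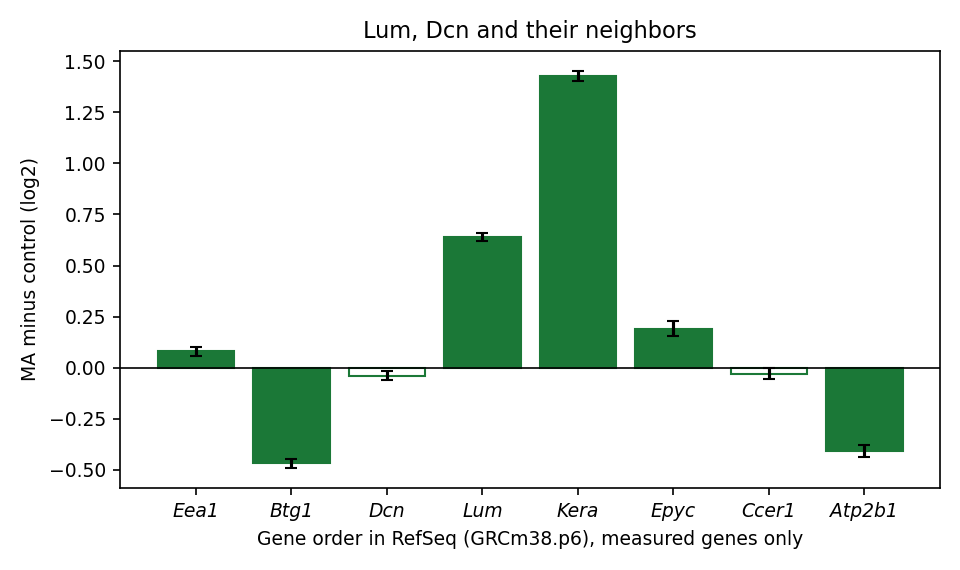
MA minus control (log2) for the measured genes around Lum in RefSeq gene order, with the standard error of limma as an error bar and bars filled where the adjusted p was under 0.05. Lum at 0.64 and Kera at 1.43 stand above the others, and Dcn at -0.04 lies beside Lum.

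Of the other small leucine-rich proteoglycans, 9 of 12 measured rose, 1 fell and 2 did not pass, where 24.7% of all named genes rose and 23.0% fell. Their median difference was 0.21, against 0.01 over all named genes, and 4 of the 12 lay at or under the background. The 3 brightest that passed were Ogn, osteoglycin, which fell by 0.21, Bgn, biglycan, the nearest relative of decorin, which rose by 0.23, and Fmod, fibromodulin, the nearest relative of lumican, which rose by 0.61. Aspn, asporin, rose by 1.5, the largest rise of the list. Of 17 measured genes listed under microfibrils and elastic fibers, some by name alone, 4 rose, 5 fell and 8 did not pass. Their median was 0.00, and the counts are to be read against the 24.7% and 23.0% of all named genes. Mgp, the matrix Gla protein that keeps matrix from calcifying, rose by 1.18, while Mfap1a, in the list by its name alone, fell by 0.20. Ltbp1, which stores latent TGF-β, fell by 0.57 at its brightest probe set, with 3 probe sets between -0.57 and -0.07. Eln, elastin itself, rose by 0.21, Mfap2, the closest relative of Mfap5, differed by 0.02 (adjusted p = 0.719), and Efemp1, fibulin-3, fell by 0.76. Aspn, Kera, Eln, Mfap2 and Efemp1 were chosen after their values were seen.

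Pdgfra, the receptor that defines FAPs, gave no clear signal at the single probe set that named it (1438946_PM_at). It had 3.93, 3.86 and 3.99 on the MA arrays and 3.99, 4.0 and 3.92 on the control arrays. These values lay around the background, above that of their own array on 2 of 3 MA arrays and 3 of 3 control arrays, and the groups overlapped. The difference of -0.04 (95% confidence interval -0.13 to 0.05) did not pass (limma adjusted p = 0.423). The label of the group could therefore not be checked on its defining receptor. The genes most like Pdgfra over the 6 arrays, of 3472 compared, were Ndufaf8, Srsf3, Gskip, Cacul1 and Tff1, with Pearson's r between 0.89 and 0.917 and differences between -0.03 and 0.00, given as a description of these arrays only.

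Of the PDGF ligands and the beta receptor, 4 genes were measured. Pdgfb, which binds both receptors, fell by 0.34 at its brightest probe set and differed by 0.06 at the other. Pdgfc, Pdgfd and Pdgfrb, the receptor of pericytes and fibroblasts, differed by -0.09, -0.05 and 0.04 and did not pass, with an adjusted p of 0.174, 0.251 and 0.283. Pdgfd was under the background on all arrays, so that its value says little.

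Cd34, a sialomucin of FAPs, satellite cells and endothelium, was well above the background. It had 6.70, 6.72 and 6.72 on the MA arrays and 6.54, 6.61 and 6.63 on the control arrays. The groups did not overlap, with 0.07 between the nearest arrays. Cd34 was 1.09-fold higher in the MA group (log2 difference 0.12, 95% confidence interval 0.06 to 0.19, limma adjusted p = 0.0084), again under the median of the hybridization controls. Markers of endothelium moved the other way in the same arrays. Of 18 measured, 15 fell and 0 rose with limma, with a median of -0.21, where 23.0% of all named genes fell and 24.7% rose. The count that rose was 0 also at an unadjusted p under 0.05 and with the one-way test. Aqp1, a water channel, Esam and Egfl7 fell by 0.31, 0.25 and 0.24. Their summed level was 10.10 to 10.13 in the MA group and 10.33 to 10.38 in the control group, over the 17 above the background, Tie1 being the one under it. Of the relatives of Cd34, Podxl, podocalyxin, fell by 0.32, with 0.03 at its dimmer probe set, and Podxl2 rose by 0.19. Satellite cell markers went both ways, with 2 of 11 higher and 5 lower, and their part in the rise of Cd34 was not tested.

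Dpp4, the peptidase CD26, was under the background on every array at both its probe sets. Its brightest probe set gave 3.58, 3.64 and 3.68 in the MA group and 3.47, 3.64 and 3.56 in the control group, with overlap between them. The difference of 0.07 did not pass (limma adjusted p = 0.228). The other probe set gave 3.50 to 3.66 against 3.41 to 3.50, a difference of 0.12 (adjusted p = 0.0614). Of 8 genes listed with Dpp4, by family or, as Dpp3 was, by name alone, 3 rose, 3 fell and 2 did not pass. Their median was 0.00, and over all named genes 24.7% rose and 23.0% fell. Fap, the fibroblast activation protein, rose by 0.57 from 6.11 ± 0.059 to 6.68 ± 0.019 (SD, n = 3), Prep rose by 0.07, and Dpp8, with 4 probe sets between -0.25 and 0.48, rose by 0.14 at the brightest. Those that fell were Dpp9 by 0.20, Dpp3 by 0.12 and Dpp7 by 0.10. Fap, Dpp9 and Dpp7 were named after their values were seen.

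Pi16, a secreted protein of the CAP family, was near the background. It had 3.99, 3.97 and 4.04 in the MA group and 3.91, 3.92 and 3.86 in the control group. All MA arrays and 2 of 3 control arrays were above the background of their own array, and the groups were 0.05 apart. The rise of 0.10 passed (95% confidence interval 0.04 to 0.17, limma adjusted p = 0.0167), and it no longer passed without MA replicate 3 (adjusted p = 0.0599), without control replicate 3 (adjusted p = 0.0578) or with the one-way test of the methods (adjusted p = 0.0546). Of 11 other CAP genes, 1 rose and 2 fell, where 24.7% of all named genes rose and 23.0% fell. At or under the background were 6 of the 11, among them the one that rose, Crisp4, by 0.09. Those that fell, Crispld2 by 0.70 and Glipr1 by 0.64, were the brightest that passed.

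**Figure D3:**
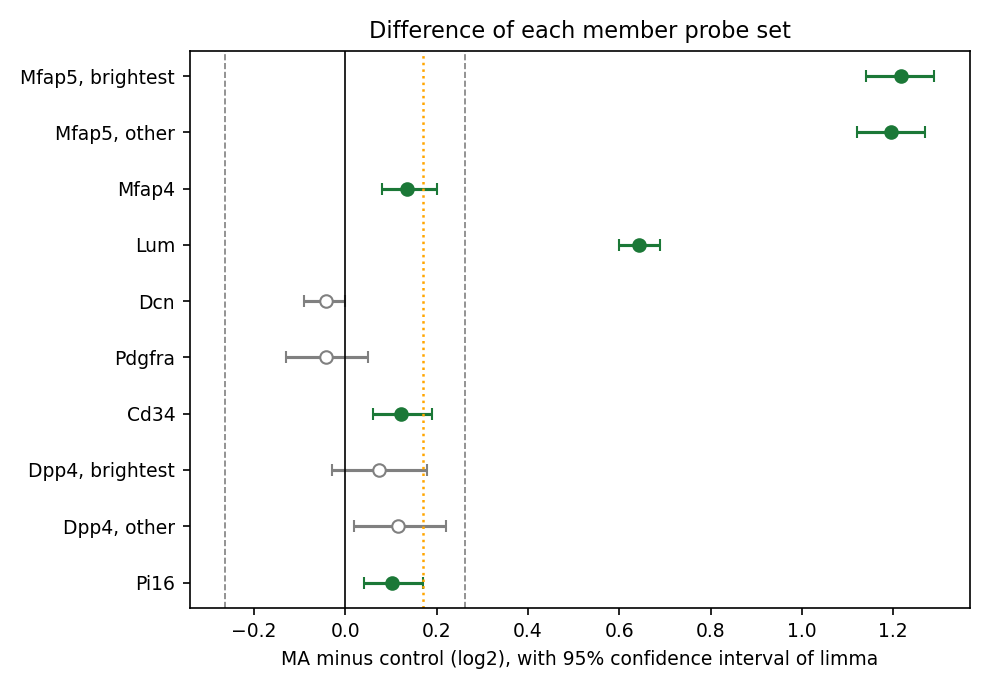
MA minus control (log2) for each member probe set with its 95% confidence interval from limma, filled and green where the adjusted p was under 0.05. The dashed lines mark a fold of 1.2 either way and the dotted line the median of the hybridization controls, 0.17, and Mfap5 at 1.22 and 1.19 and Lum at 0.64 alone lie past both.

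Other genes of FAPs and fibroblasts, 38 measured, did not move one way. Of these, 11 rose, 12 fell and 15 did not pass, with a median of 0.01, where 24.7% of all named genes rose and 23.0% fell. Past 1.2-fold at an unadjusted limma p under 0.05, 6 were higher and 7 lower, where 1012 and 1175 of all 17097 named genes were. The 3 brightest that passed all fell. They were Gsn, gelsolin, which cuts actin filaments, by 0.19, with 5 probe sets between -0.25 and 0.00, Apod, apolipoprotein D, by 0.70 and Serping1, the inhibitor of complement C1, by 0.41. Of those that rose, Fstl1, a secreted follistatin-like protein, gained 0.43 and Ccdc80, a matrix protein, 0.39, though its other probe set differed by -0.01. Procr, the protein C receptor, fell by 0.90 and Penk, proenkephalin, by 0.77. Tcf7l2, a transcription factor of muscle connective tissue, fell by 0.57 at its brightest probe set, with 4 probe sets between -0.64 and -0.03. The mesenchymal regulators Osr1 and Twist2 differed by 0.14 (limma adjusted p = 0.0764) and -0.03 (limma adjusted p = 0.399). Fstl1, Ccdc80, Procr, Penk, Tcf7l2, Osr1 and Twist2 were named after their values were seen.

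Genes of 2 fibroblast states were set side by side. Over all named genes, 24.7% rose and 23.0% fell. Of 17 measured genes of the Pi16 and Dpp4 positive state, 7 rose, 3 fell and 7 did not pass, with a median of 0.07. Sema3c, a guidance molecule, rose by 0.35, Ackr3, a scavenging receptor of chemokines, by 0.31 and Cd55, an inhibitor of complement, by 0.14. Igfbp6, a binding protein of insulin-like growth factors, rose by 0.46. The 3 that fell were Procr by 0.90 as above, the largest change of this list, Clec3b, tetranectin, by 0.24 and Cmah, an enzyme of sialic acid synthesis with 4 probe sets between -0.18 and 0.05, by 0.18. Of 15 genes of the Cxcl14 and Col15a1 positive state, 2 rose, 6 fell and 7 did not pass, with a median of -0.03. Inmt, a methyltransferase, fell by 1.12, Apod by 0.70 as above, and Cxcl14 itself by 0.33, though its dimmer probe set differed by 0.15, while Col15a1 differed by -0.01 (adjusted p = 0.89) and Nid1, nidogen of basement membranes, rose by 0.18. Igfbp6, Procr, Clec3b, Cmah, Cxcl14 and Col15a1 were named after their values were seen, and the difference between the lists was not tested.

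Genes of activated fibroblasts were higher in 12 of 17 cases and lower in 2, and 3 did not pass, with a median of 0.43. The shares over all named genes were 24.7% higher and 23.0% lower. On average 3 of the 17 lay at or under the background, among them Loxl2 and Cdh11, which were counted as higher. The brightest that passed were Runx1, Thbs4 and Ccn2. Runx1, a transcription factor induced by denervation in fibers as well, fell by 0.28 at its brightest probe set, with 6 probe sets between -0.40 and -0.06. Thbs4, a thrombospondin of tendon and muscle, rose by 1.64, and Ccn2, the connective tissue growth factor, rose by 0.96. Cthrc1, a secreted marker of matrix-producing fibroblasts, went from 3.73, under the background, to 4.95, and Tnc, tenascin C, rose by 1.02 at its brightest probe set and differed by 0.06 at the other. Acta2, the actin of myofibroblasts and smooth muscle, fell by 0.22 at its brightest probe set and differed by -0.04 at the other. Loxl2, Cdh11, Cthrc1, Tnc and Acta2 were named after their values were seen.

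Tendon markers moved with Mfap5 and Lum, which tendon cells also express. Of 10 measured, 9 rose and 1 fell, with a median of 0.56, where 24.7% of all named genes rose and 23.0% fell. Kera, Fmod and Chad were also counted among the small leucine-rich proteoglycans, and Thbs4 among genes of activated fibroblasts. Fmod and Thbs4 were among the 3 brightest that passed, and Egr1, an immediate early factor that acts in tendon and elsewhere, was the one that fell, by 0.43. The summed level of the 9 above the background, Mkx being the one under it, was 10.90 to 10.93 in the MA group and 10.11 to 10.13 in the control group, without overlap. Their part in the rise of Mfap5 and Lum was not tested. Macrophage markers were lower in 14 of 16 cases, with a median of -0.68 and a summed level of 11.24 to 11.28 against 12.03 to 12.05 over the 15 above the background, Itgam being the one under it. Their part was not tested either.

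**Figure D4:**
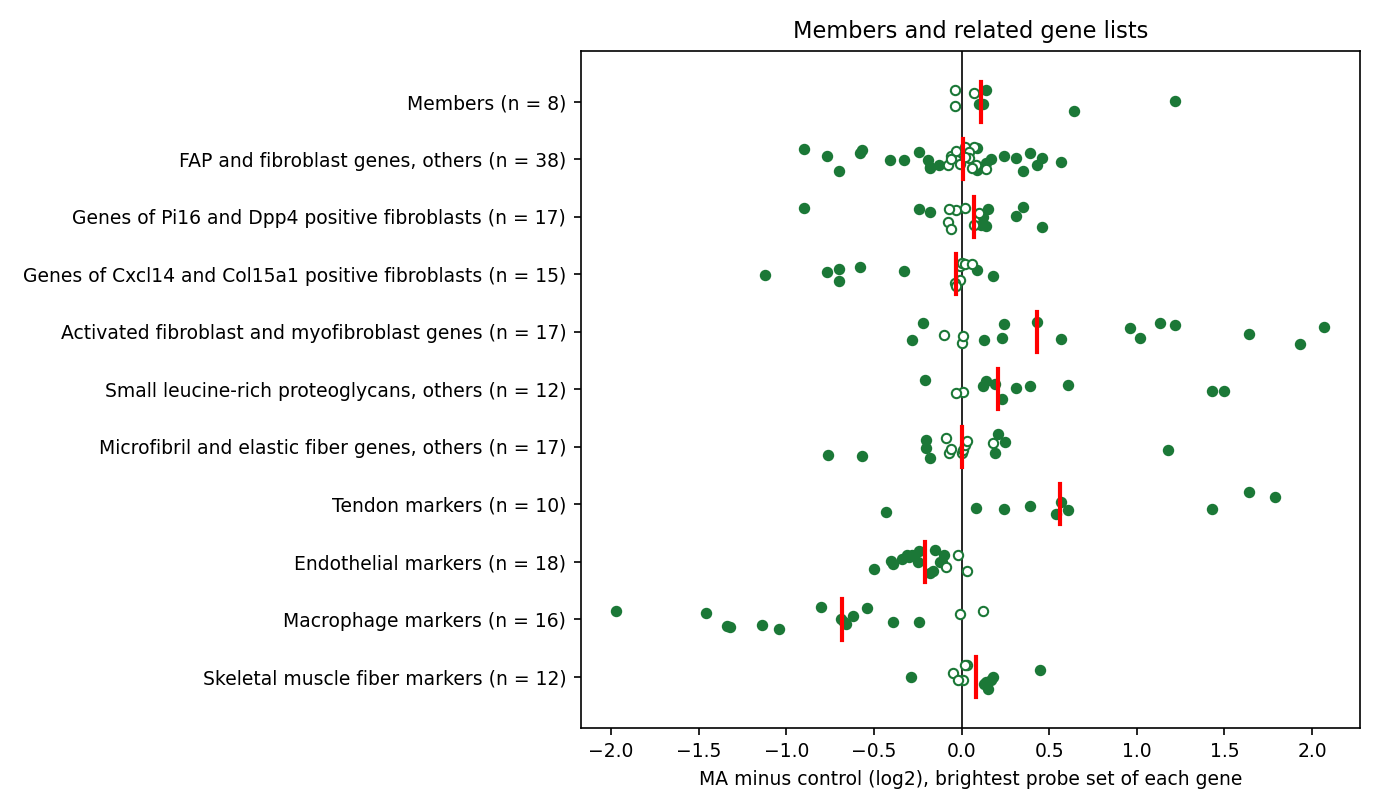
MA minus control (log2) for the members and for the measured genes of 10 related lists. Points are genes at their brightest probe set, filled where limma's adjusted p was under 0.05, and red bars are medians. Some genes stand in several lists. The medians of tendon markers and activated fibroblast genes, 0.56 and 0.43, lie to the right, those of endothelial and macrophage markers, -0.21 and -0.68, to the left, and that of the other FAP and fibroblast genes, 0.01, at the middle.

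Of the Ly6 family, to which Ly6a belongs, 12 other genes were measured, with 4 at or under the background. Of these 12, 1 rose, 5 fell and 6 did not pass, with a median of -0.07. Among all named genes 24.7% rose and 23.0% fell. Ly6e, which interferons induce, fell by 1.11, Ly6c1, of endothelium and leukocytes, by 0.33 and Gpihbp1, which anchors lipoprotein lipase in capillaries, by 0.25. Probe sets of this family can share sequence between genes, and that of Ly6e is of a type that the manufacturer marks as shared. Interferon-induced genes fell in 20 of 23 cases on the same arrays and rose in 1, with a median of -1.02 and 4 at or under the background. Any link to the falls of the Ly6 family was not tested.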

How the data were processed

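The deposited values are log2 values that the authors made from the array scans with RMA (background correction, quantile normalization and 1 value per probe set) in Affymetrix Expression Console, and they were used without further normalization. The IDs are those of a mouse array strip, as in the methods. Of 45141 probe sets, 104 array controls were set aside. Genes were taken from GEO's platform annotation, in which 28898 probe sets name 1 gene, 551 several and 15588 none. The gene IDs of 28689 are in RefSeq, and 0 symbols needed an update.

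The MA group and the control group (3 arrays each, from the sample titles) were compared for all 45037 probe sets with limma 3.58.1 in R 4.3.3 (lmFit and eBayes, no covariate), with Benjamini-Hochberg adjustment over all of them and no filter on dim probe sets. The steps were tested on simulated data. A gene is given by its brightest probe set. Background was the highest value, 3.95, of the nonspecific controls except that of the highest GC content, whose mean was 7.24 and which the filter had named. The summed level of a list is the log2 of the sum of linear values of its genes above background. The number of arrays limits the precision.

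Named genes were the members, the 3 brightest genes called in a list and the 5 most like Pdgfra in genes with a mean above 7.24, and the text says where others were chosen after their values were seen. The members and lists were chosen with earlier results of these data known, so that lists were described and not tested. Alternatives were leaving out each array, the methods' own one-way test, array weights, a replicate block, robust or trended eBayes, median centring, a further quantile normalization, filters on dim probe sets and averaging the probe sets of a gene. One filter, at 3.95, was chosen after seeing the data.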

Additional observations from a re-analysis of the deposited data

How the results depend on the processing

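The rises of Mfap5, Lum, Mfap4 and Cd34 passed under every alternative in which they could be fitted, at 1.205 to 1.236, 0.641 to 0.652, 0.129 to 0.167 and 0.111 to 0.158 with all 6 arrays, and at the values given below without 1 array. The filter at 7.24 kept only Lum and Dcn of the members, giving 1 probe set or gene higher, 1 lower and 1 past the study's thresholds. Dcn, at -0.043, passed as lower with that filter (adjusted p = 0.00711), with an eBayes trend and with the one-way test of the methods, each giving 1 probe set and 1 gene lower in place of 0. Under the filter fewer probe sets are tested and limma is fitted anew to those kept, so that unadjusted p-values change as well. The cause of these changes was not tested. Pi16 stayed at 0.103 with the one-way test but did not pass. Leaving out 1 array gave 5 to 7 member probe sets higher and 4 to 5 genes, 0 lower, 3 past the thresholds, and differences of -0.075 to -0.007 for Pdgfra, 0.116 to 0.156 for Mfap4, 1.187 to 1.242 for Mfap5, -0.051 to -0.039 for Dcn, 0.638 to 0.649 for Lum, 0.096 to 0.143 for Cd34, 0.031 to 0.118 for Dpp4 and 0.084 to 0.117 for Pi16. Among the lists, the filter at 7.24 left 6 of the other FAP and fibroblast genes higher and 3 lower in place of 11 and 12, 0 and 1 of the Ly6 family in place of 1 and 5, and 5, 1 and 4 lower in place of 20, 15 and 14 for interferon-induced, endothelial and macrophage genes. The Ly6 family had 3 lower with the filter at 3.95 and 2 higher with averaged probe sets, and without MA replicate 1 a macrophage marker was higher (1 in place of 0). Same-numbered arrays shared deviations weakly (r of 0.199, 0.0349 and 0.153 for numbers 1, 2 and 3, over probe sets above background). Arrays of different numbers gave r between -0.1935 and 0.0796, under the values of numbers 1 and 3. What same-numbered arrays may share was not tested. The numbers were not taken as pairs in the main fit. The replicate block gave 7 member probe sets higher against 6, 5 genes higher and 0 lower, and changed no member gene's call. Signals near or under background limit Pdgfra, Dpp4 and Pi16.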
